A study of Mus musculus with 36 samples.

Results

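The family of miR-148 and miR-152 was followed through 36 small RNA libraries of mouse kidney. The 4 members were the table's entries for mature mmu-miR-148a-3p, mmu-miR-148a-5p, mmu-miR-148b-3p and mmu-miR-152-3p, written below without the species prefix and chosen by name among 1915 mature miRNAs. All of the mice were on a C57BL/6 background and carried floxed alleles of 1 gene, Pkd1 f/f or Pkd2 f/f. Loss of either gene causes autosomal dominant polycystic kidney disease in people. Floxed mice with the HoxB7-Cre transgene are called KO, and floxed littermates without Cre are called WT, so the floxed alleles were shared by both groups. Whole kidneys were taken at postnatal day 1, 3 or 7 (P1, P3 and P7), which gave 12 groups of 3 libraries. HoxB7-Cre acts in the ureteric bud and the collecting duct that forms from it, so most cell types of the sampled kidney were not deleted. In such bulk RNA, fewer cells of a type and less RNA per cell cannot be told apart. Sequencing of messenger RNA was not analysed here, so the loss of Pkd1 or Pkd2 was not checked against the genotype labels. The labels do not say whether the 3 libraries of a group came from separate mice, and p-values therefore measure only the spread between these libraries.

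A miRNA is cut from a hairpin whose 2 arms can each give a mature strand, named 5p and 3p. The strand that is kept is loaded into an Argonaute protein and pairs with messenger RNAs mainly through its seed, bases 2 to 8, which lowers their stability and translation. miRNAs with the same seed can share targets, and the 3p strands of miR-148a, miR-148b and miR-152 are such a family. It is known for binding the messenger RNA of Dnmt1, the enzyme that maintains DNA methylation, and for roles in liver, immune cells and epithelial tumours.

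The mature strands are shown first because their reads have to be told apart by only a few bases. The sequences are from RefSeq for GRCm38.p6, and capitals mark the seed.
mmu-miR-148a-3p: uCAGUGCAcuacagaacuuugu
mmu-miR-148b-3p: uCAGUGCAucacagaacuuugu
mmu-miR-152-3p: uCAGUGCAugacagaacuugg
mmu-miR-148a-5p: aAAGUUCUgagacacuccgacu
Positions are counted from 1 at the 5′ end. Against miR-148a-3p, miR-148b-3p differed at 2 of 22 bases, C9U and U10C. miR-152-3p differed from miR-148a-3p at 3 of the 21 bases compared, C9U, U10G and U20G. It differed from miR-148b-3p at 2 of 21 bases, C10G and U20G. No base of the seed differed among the 3p members, and no other mature miRNA in the RefSeq table had the seed CAGUGCA. Of the 1915 miRNAs in the count table, 1623 were found there, all 4 members among them. The seed of miR-148a-5p was shared with miR-148b-5p, which is not a member.

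Each member was listed under a single hairpin. Mir148a lies on the minus strand at chr6:51269812-51269910 and overlaps no other gene in the annotation used (GRCm38). Its 3p strand is at chr6:51269829-51269850 and its 5p strand at chr6:51269867-51269888. Mir148b, on the plus strand at chr15:103285125-103285221, lies in an intron of Copz1, which is transcribed from the same strand. The mature miR-148b-3p is at chr15:103285185-103285206. Mir152, on the plus strand at chr11:96850393-96850465, lies in an intron of Copz2, also on the same strand, with miR-152-3p at chr11:96850439-96850459. Copz1 and Copz2 encode paralogous subunits of the coatomer complex, which coats vesicles of the early secretory pathway.

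A perfect match to bases 2 to 8 of the 3p members, TGCACTG read on the sense strand only, was found once in the 3′ UTR of Dnmt1. It starts at position 23 of 312 bases, shown here in capitals with its flanks on the minus strand at chr9:20907488-20907507.
Dnmt1 site: agccccacgTGCACTGatgt
The same letters were absent from the longest 3′ UTRs of Dnmt3a and Dnmt3b, which encode the de novo methyltransferases. The match was present in 2672 of 21020 such UTRs of protein-coding genes, or 12.7%, so it describes a possible pairing and not a tested site.

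Library totals were 12569939 to 32663566 reads, and the smallest count of any member in any library was 528. Levels are given in CPM, counts per 1000000 reads of the library, scaled with trimmed mean of M values (TMM) factors, which were computed separately for each model. The sum of miR-10a-5p and miR-10b-5p was 31.4% to 81.0% of a library's reads, and TMM factors ran from 0.393 to 2.13. Values that compare 2 members within a library are free of this scaling. Of miRNAs known to be enriched in epithelium and in nephron tubules, none of the 5 and 4 listed was at 0 throughout any group. At these library totals such presence is a weak check and does not verify the kidney label. One Pkd1 P1 WT library stood apart, with 1146 CPM for the sum of 3 striated muscle miRNAs against at most 39.8 CPM in the other 2 of its group. Among Pkd2 P1 libraries, WT replicate 3 had 341 CPM of the liver miRNA miR-122-5p, against 13.1 and 11.3 CPM in its group. KO replicate 3 had 191 CPM of the striated muscle miRNAs, against 37.4 and 25.5 CPM.

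miR-148a-3p was one of the most abundant miRNAs of the postnatal kidney and made up most of the family. By mean share of the reads over all libraries it ranked 13th of 1590 detected miRNAs, followed by miR-148b-3p at 64th, miR-152-3p at 127th and miR-148a-5p at 129th. The order of the first 2 held in all 36 libraries, and miR-148b-3p exceeded both remaining members in all 36. The lower pair changed places between libraries. miR-152-3p had more reads than miR-148a-5p in 3 of 18 Pkd1 libraries and in 17 of 18 Pkd2 libraries. The 3 Pkd1 libraries were those of P7 KO, and the P7 WT libraries had the reverse order. This order was not tested. Mature strands are 21 or 22 bases long, so read counts needed no length correction, but ligation efficiency differs between miRNAs and was not measured.

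In the Pkd1 model, mmu-miR-148a-3p ranged from 4531 to 11271 CPM over 18 libraries, with a median of 7545 CPM. mmu-miR-148b-3p ranged from 539 to 880 CPM (median 663), mmu-miR-148a-5p from 79.4 to 247 CPM (median 139) and mmu-miR-152-3p from 58.4 to 172 CPM (median 106). miR-148b-3p thus had the narrowest spread, with a highest level 1.63 times the lowest, while miR-148a-5p spanned a factor of 3.11. The Pkd2 libraries held 6320 to 10294 CPM of miR-148a-3p, 726 to 1399 CPM of miR-148b-3p, 105 to 274 CPM of miR-148a-5p and 177 to 344 CPM of miR-152-3p. The 2 ranges of miR-152-3p did not overlap between the models, but they were scaled separately. With 1 scaling over all 36 libraries the ranges were 74.2 to 221 CPM and 139 to 284 CPM and did overlap, and no test between the models was made.

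**Figure D1:**
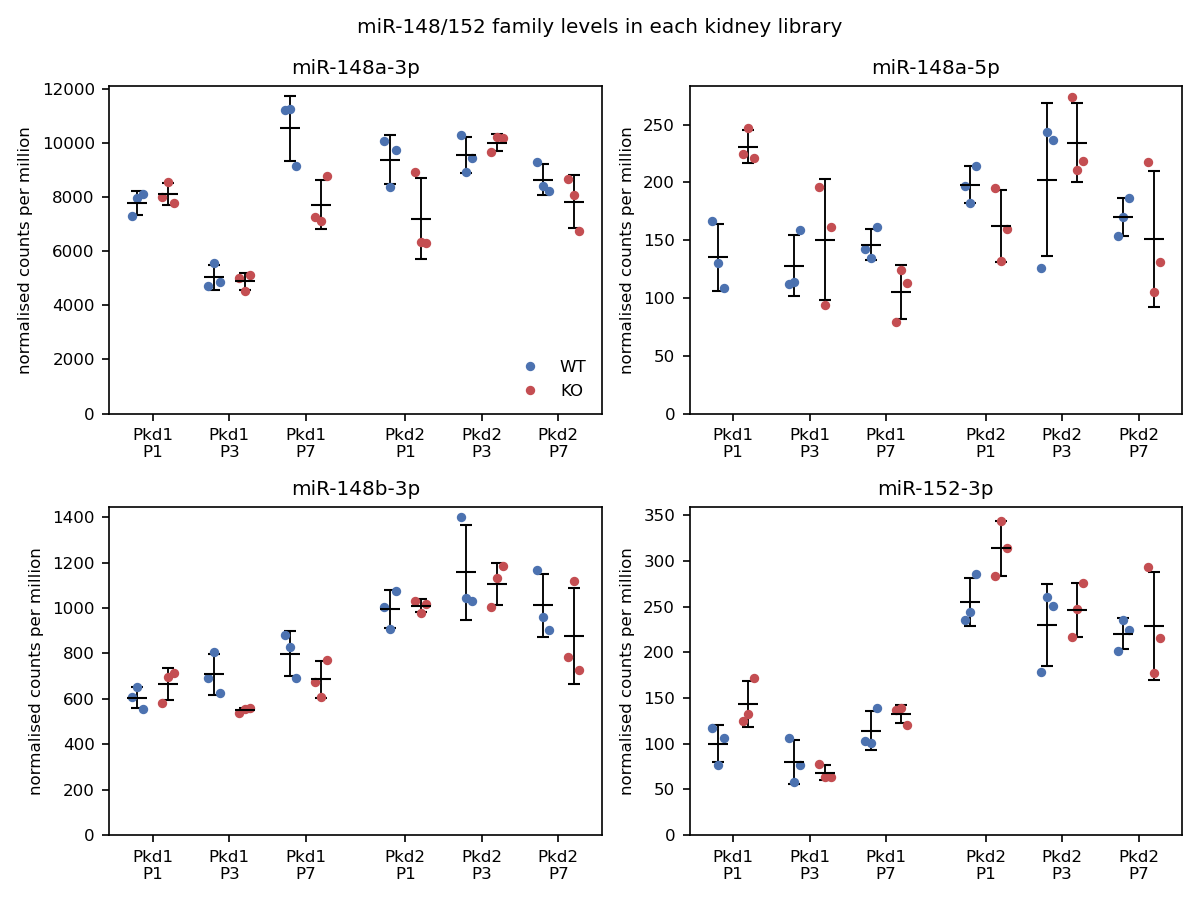
Each point is 1 library, in normalised CPM, for the 4 members by model, age and genotype; black bars are the group mean and SD (n = 3). miR-148a-3p sits lowest in the 6 Pkd1 P3 libraries (4531 to 5559 CPM), and WT and KO points overlap in most groups.

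Of the reads that carried the shared 3p seed, miR-148a-3p made up 82.6% to 92.5%, miR-148b-3p 6.34% to 13.3% and miR-152-3p 0.828% to 4.48%. The share of miR-152-3p was 0.828% to 1.98% in Pkd1 libraries and 1.50% to 4.48% in Pkd2 libraries. The 3 strands together were 0.339% to 1.45% of all miRNA reads in a library. Counting error on these shares is small beside the spread between libraries, given at least 42655 such reads in each library.

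Deletion of Pkd1 or Pkd2 in the collecting duct was the central comparison of the study, and no member of the family was called in it at any age. Each KO group was compared with the WT group of its age by the quasi-likelihood test of edgeR, with Benjamini-Hochberg adjustment over all miRNAs tested. In the Pkd1 model 0 of 4 members passed an adjusted p of 0.05 at each age, where at P1, P3 and P7 0%, 0% and 0.425% of 706 miRNAs did. In the Pkd2 model 0 of 4 passed at each age, where 0%, 0% and 12.6% of 746 miRNAs did. At an unadjusted p under 0.05 there were 5 of the 24 values, namely 2, 1 and 1 in the Pkd1 model at P1, P3 and P7, and 1 at P1 in the Pkd2 model. The shares of all miRNAs below that level were 8.36%, 9.07% and 10.2% for Pkd1, and for Pkd2 5.5%, 1.47% and 29%. By the Wald test of DESeq2, 1 of the 24 values passed, as given below. The study's criterion, at least 2-fold together with p under 0.05 before adjustment, was met by no member value. Of all miRNAs, 4.25%, 6.09% and 3.97% met it for Pkd1, and 1.34%, 0.268% and 17.8% for Pkd2. In 21 of 24 values the whole 95% confidence interval lay within 2-fold.

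At P7 in the Pkd1 model the lowest adjusted p of any member was that of miR-148a-3p, the major strand. The WT libraries held 11223, 11271 and 9160 CPM and the KO libraries 7282, 7116 and 8773 CPM. Each KO library lay below each WT library. The log2 fold change was -0.45 (95% confidence interval -0.74 to -0.16), with an adjusted p of 0.157 by edgeR. DESeq2 gave -0.49 with an adjusted p of 0.00574, a test by which 2.41% of miRNAs were called at this age (1.27% at P1 and at P3, and 0%, 0% and 21% for Pkd2), and over the alternatives the adjusted p ran from 0.00574 to 0.995 with values between -0.59 and -0.39. Pkd1 P7 WT replicate 3 was the nearest to the KO libraries, and without it the adjusted p was 0.0326 and the value -0.59. The other strand of the same hairpin, miR-148a-5p, was at 143, 135 and 161 CPM in WT and 79.4, 124 and 113 CPM in KO. These groups did not overlap either, with a value of -0.47 on the log2 scale (SE 0.25, adjusted p = 0.567 by edgeR). The groups did not overlap for 2 of 4 members at this age, and for 16.3% of all miRNAs.

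The summed level of 4 nephron tubule miRNAs was also lower in KO in this comparison. It was 12682 to 21098 CPM in Pkd1 P7 WT libraries and 9936 to 10842 CPM in KO libraries, with 0 of 4 called and a median log2 fold change of -0.45. None of the 4 was at 0 throughout either group. For 5 epithelial miRNAs the sums overlapped, at 2728 to 3893 CPM in WT and 2957 to 3309 CPM in KO. The part of cell composition in the miR-148a-3p values was not tested. miR-148b-3p at P7 was at 799 ± 98.4 CPM (SD, n = 3) in WT and 686 ± 82.0 CPM in KO, and miR-152-3p at 114 ± 21.7 and 132 ± 10.2 CPM. Both overlapped between genotypes.

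At P1 the Pkd1 model showed its largest member difference in the minor strand. miR-148a-5p was at 167, 130 and 109 CPM in WT and 224, 247 and 221 CPM in KO. All KO libraries were higher, by 0.77 on the log2 scale (SE 0.25, adjusted p = 0.438 by edgeR). The major strand of that hairpin, miR-148a-3p, was at 7796 ± 439 CPM in WT and 8120 ± 394 CPM in KO (SD, n = 3), a log2 fold change of 0.06 with an interval from -0.23 to 0.34. miR-152-3p was at 117, 77.1 and 106 CPM in WT and 125, 133 and 172 CPM in KO. Here too the groups did not overlap, with a value of 0.52 on the log2 scale (SE 0.23, adjusted p = 0.572 by edgeR). Non-overlap held for 2 of 4 members and for 19.8% of all miRNAs in this comparison. The miR-10 share did not overlap at this age, with 62.9% to 75.1% in WT and 57.3% to 61.8% in KO. Sums of the tubule miRNAs (4603 to 6794 CPM in WT, 7390 to 7906 CPM in KO) and of 3 mesenchymal miRNAs (3212 to 4274 and 4564 to 5063 CPM) were also separate, with 0 of 4 and 0 of 3 called and none at 0 throughout a group. So were those of 2 smooth muscle miRNAs, at 23211 to 30930 CPM in WT and 34857 to 41667 CPM in KO (0 of 2 called). These 2 went opposite ways, with log2 fold changes of -1.05 and 0.57. The sums of 3 red blood cell miRNAs were separate in the opposite direction, at 2792 to 3725 CPM in WT and 2093 to 2431 CPM in KO (0 of 3 called). Log2 fold changes of the 3 ran from -0.61 to 0.61, and those of the 3 mesenchymal miRNAs from -0.08 to 0.49. The part of these miRNAs in the member values was not tested.

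At P3 only miR-148b-3p was separate between the Pkd1 genotypes among the members. It was at 690, 806 and 626 CPM in WT and 539, 553 and 558 CPM in KO, a value of -0.36 on the log2 scale (SE 0.15, adjusted p = 0.488 by edgeR). Such separation held for 11.9% of all miRNAs. Red blood cell sums were also separate, at 1093 to 1252 CPM in WT and 1313 to 3605 CPM in KO (0 of 3 called), and their part in the result was not tested. No member was separate at all 3 ages. miR-148a-5p was separate at P1 and at P7, with opposite signs, and the other 3 members at 1 age each. The median log2 fold change of the 4 members was 0.33 at P1, -0.14 at P3 and -0.34 at P7, beside medians of -0.03, 0.02 and 0.0062 over all miRNAs tested.

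In the Pkd2 model no member was separate between genotypes at any age, against 13.5%, 4.69% and 25.2% of all miRNAs at P1, P3 and P7. The largest value was that of miR-148a-3p at P1, with 10069, 8363 and 9733 CPM in WT and 8946, 6352 and 6320 CPM in KO. The lower 2 KO libraries were below all WT libraries and the other was not. The log2 fold change was -0.38 (SE 0.16, adjusted p = 0.886 by edgeR). The summed nephron tubule miRNAs were at 7686 to 9824 CPM in these WT and 4510 to 6508 CPM in these KO libraries. Smooth muscle sums were also separate, at 37214 to 43728 CPM in WT and 33447 to 36886 CPM in KO, as were mesenchymal sums, at 6486 to 6755 CPM and 6948 to 7340 CPM. Within both lists single miRNAs went both ways. Log2 fold changes were -0.26 and 0.07 for smooth muscle, and -0.096 to 0.15 (median -0.044) for the mesenchymal miRNAs. None of these miRNAs was called, and their part in the result was not tested. At P7, where this model had most called miRNAs, the log2 fold changes were -0.14 for miR-148a-3p (interval -0.48 to 0.19), -0.17 for miR-148a-5p (-0.74 to 0.40), -0.21 for miR-148b-3p (-0.59 to 0.17) and 0.05 for miR-152-3p (-0.36 to 0.47). Library 1 of the P7 KO group was the highest of its group for 3 members, and library 2 the highest for miR-148b-3p, at 1118 CPM against 785 and 726 CPM. Tubule sums at P7 were separate, at 17243 to 29524 CPM in WT and 6911 to 14845 CPM in KO (3 of 4 called lower). Red blood cell sums (2620 to 3266 and 4276 to 6773 CPM) and striated muscle sums (20.8 to 23.3 and 32.5 to 130 CPM) were separate and higher in KO, with none called. Of the 5 epithelial miRNAs 2 were called higher. The part of these miRNAs in the P7 values was not tested.

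**Figure D2:**
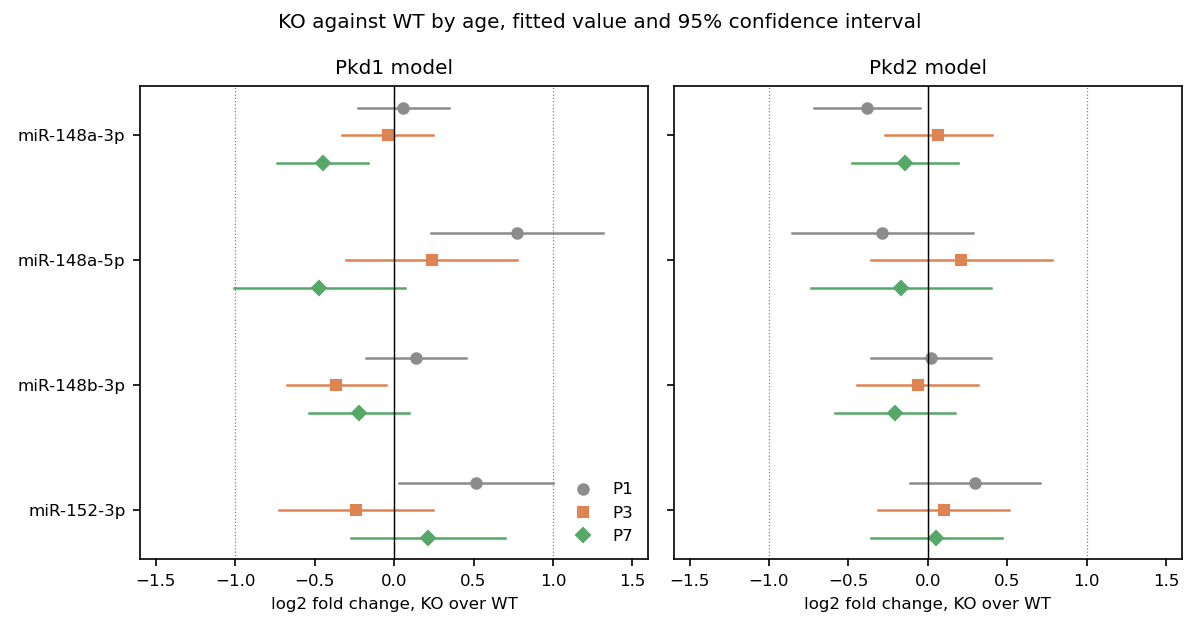
Points are fitted log2 fold changes of KO over WT for each member at P1, P3 and P7 in the 2 models, bars are 95% confidence intervals and dotted lines mark 2-fold. All 24 points lie within 2-fold, from -0.47 to 0.77, and all 12 intervals of the Pkd2 model do.

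The KO effect was then compared between ages and between models, since a value that passes in one group and not in another does not show a difference. The effect at P7 minus that at P1 was called for 0 of 4 members in either model by edgeR or by DESeq2, beside 0.142% and 0.536% of all miRNAs by edgeR (5 of 706 and 33 of 746 by DESeq2). In the Pkd1 model it was -1.24 for miR-148a-5p (SE 0.36, unadjusted p = 0.00334, adjusted p = 0.266 by edgeR). For miR-148a-3p it was -0.51 (SE 0.19, unadjusted p = 0.0166, adjusted p = 0.366 by edgeR), and 2 of 4 members had an unadjusted p under 0.05, against 12% of all. In the Pkd2 model the values were 0.12 and 0.24, with 0 of 4 members at that level, against 16.9%. The P7 effect in Pkd1 minus that in Pkd2 was called for 0 of 4, with 0 of 4 under an unadjusted p of 0.05, beside 0.387% and 12% of 775 miRNAs. For miR-148a-3p this difference was -0.31 (interval -0.70 to 0.08).

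Between ages, 1 member was called in WT and another in KO kidneys of the Pkd1 model. Among WT kidneys miR-148a-3p was at 7296, 7975 and 8116 CPM at P1, at 4704, 5559 and 4850 CPM at P3, and at P7 at 11223, 11271 and 9160 CPM. The 3 ages did not overlap, with the lowest levels in the middle; non-overlap held for 33.1% of all miRNAs between P1 and P7, 29.6% between P1 and P3 and 32.7% between P3 and P7. The change from P1 to P7 was 0.44 on the log2 scale (SE 0.13, adjusted p = 0.0321 by edgeR), and 1 of 4 members was called, as were 21.5% of 706 miRNAs. At an unadjusted p under 0.05 there were 2 of 4, against 36.3%. The call was lost without any of P1 WT replicates 1 and 2 and P7 WT replicates 1 and 2, with adjusted p between 0.0592 and 0.111. It was also lost when only the compared groups were fitted (0.42, adjusted p = 0.152) and without the filter on low counts (0.36, adjusted p = 0.227), values close to that with all libraries. The sign turned to -0.26 with library totals alone and to -0.0086 with totals that left out miR-10, where the medians of all miRNAs were -0.68 and -0.48. miR-148b-3p was 0.40 higher (SE 0.15, adjusted p = 0.0633 by edgeR), with 607, 652 and 556 CPM at P1 and 880, 828 and 690 CPM at P7. miR-148a-5p and miR-152-3p overlapped between P1 and P7. The summed tubule miRNAs were at 4603 to 6794 CPM at P1, 4499 to 9578 CPM at P3 and 12682 to 21098 CPM at P7 in these WT libraries, with 3 of 4 called higher from P1 to P7. From P1 to P7, 4 of 4 leukocyte, 2 of 5 epithelial, 1 of 2 endothelial, 1 of 2 smooth muscle and 1 of 3 red blood cell miRNAs were also called higher, and 3 of 3 striated muscle miRNAs lower. Striated muscle sums were 1146, 39.8 and 14.0 CPM at P1 and 28.5 to 45.1 CPM at P7. Only P1 WT replicate 1 thus lay above the P7 libraries. Leukocyte sums were 109 to 155 CPM at P1 and 245 to 368 CPM at P7, and smooth muscle sums 23211 to 30930 CPM and 38556 to 75571 CPM. The part of these miRNAs in the result was not tested.

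The steps through P3 were tested after these levels had been seen. From P1 to P3 miR-148a-3p fell by 0.63 on the log2 scale (SE 0.13, adjusted p = 0.00847 by edgeR), 1 of 4 members called beside 18.8% of miRNAs (1 of 4 and 31.6% at an unadjusted p under 0.05). With library totals alone the value was -0.05 (adjusted p = 0.934), and with only those 6 libraries fitted -0.68 (adjusted p = 0.104). From P3 to P7 it rose by 1.07 (SE 0.14, adjusted p = 0.000117 by edgeR), a fold change of 2.09, and again 1 of 4 members was called, beside 14.4% of miRNAs (2 of 4 and 28.9% at an unadjusted p under 0.05). This sign too turned with library totals alone, to -0.21, where the median of all miRNAs was -1.27, while totals that left out miR-10 gave 0.65 (adjusted p = 0.00275). Red blood cell sums followed the same course in these WT libraries, at 2792 to 3725 CPM at P1, 1093 to 1252 CPM at P3 and 2561 to 3083 CPM at P7, with 1 of 3 called lower and then 1 of 3 called higher. The 3 did not all follow their sum. Their log2 fold changes ran from -1.55 to 1.16 from P1 to P3, and from 0.85 to 1.40 from P3 to P7. From P1 to P3, 3 of 3 striated muscle miRNAs were called lower and 2 of 4 tubule miRNAs higher. So were 1 of 5 epithelial, 1 of 2 endothelial and 1 of 4 leukocyte miRNAs. From P3 to P7, 1 of 4 tubule, 1 of 2 smooth muscle and 1 of 4 leukocyte miRNAs were called higher, and 1 of 3 mesenchymal miRNAs lower. Striated muscle sums at P3 were 15.0 to 40.5 CPM, and again only P1 WT replicate 1 lay above that range. The part of these miRNAs in the result was not tested. No other member was called in either step, and the age groups cannot be told apart from any batch that the labels do not give.

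The P3 libraries of the Pkd1 model were also set apart by shares, which need no scaling between libraries. This split was described after the P3 levels had been seen. It was not tested, and how often shares among other miRNAs split this way was not computed. In the 6 Pkd1 P3 libraries, WT and KO together, miR-148a-3p made up 85.5% to 89.2% of the reads with the 3p seed. In the 12 Pkd1 libraries of P1 and P7 it made up 89.8% to 92.5%, so that the ranges did not meet. Since the shares sum to 100%, that of miR-148b-3p followed from this, with 9.55% to 12.6% at P3 and 6.34% to 8.34% at the other ages. The shares of miR-152-3p overlapped, at 0.909% to 1.93% and 0.828% to 1.98%. The miR-10 share of those 6 P3 libraries ran from 31.4% to 79.8%. In them miR-148a-3p was at 4531 to 5559 CPM after TMM scaling, and at 0.299% to 1.07% of all reads without it. The part of the miR-10 share in these levels was not tested. In Pkd2 kidneys the P3 share of miR-148a-3p, 86.7% to 88.8%, lay inside the range of the other ages, 82.6% to 89.0%.

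**Figure D3:**
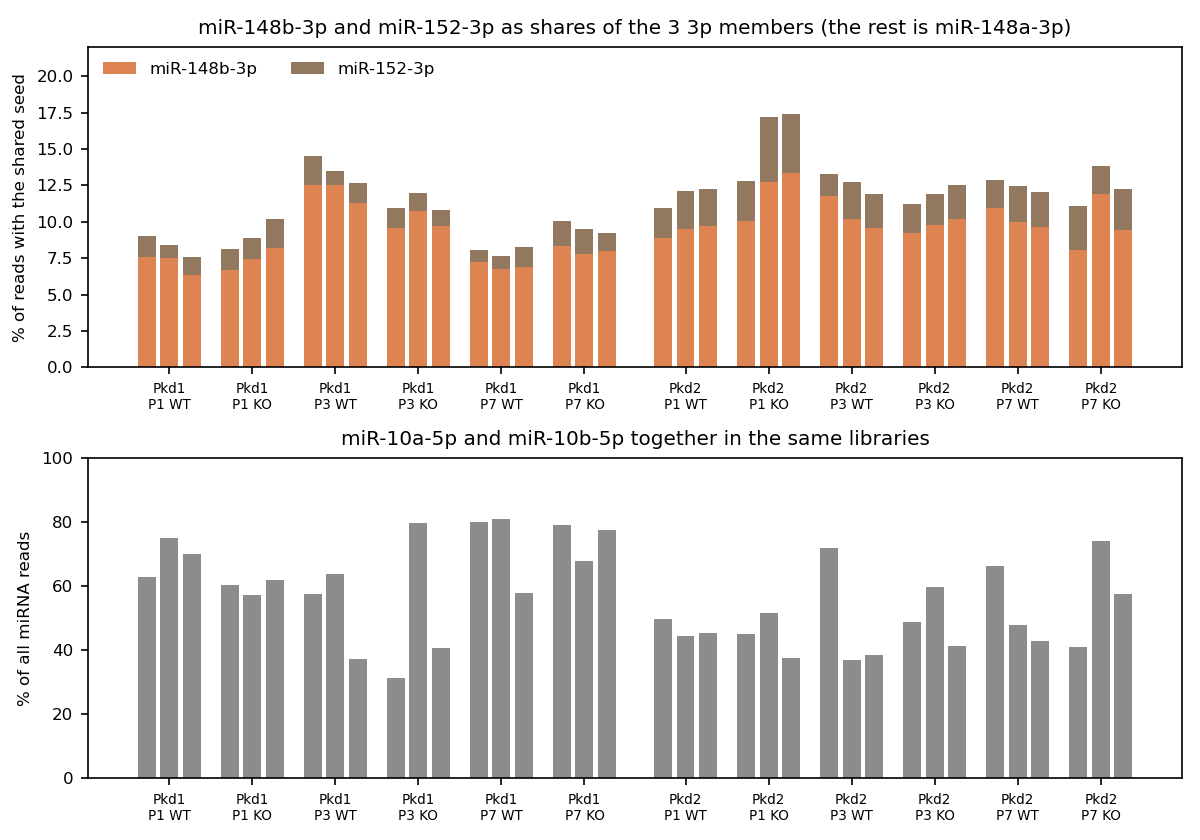
Bars in the upper panel stack the percent of 3p seed reads taken by miR-148b-3p and miR-152-3p in each of 36 libraries, the remainder being miR-148a-3p; the lower panel gives the percent of all reads taken by miR-10a-5p and miR-10b-5p. miR-148b-3p takes 9.55% to 12.6% in the 6 Pkd1 P3 libraries and 6.34% to 8.34% in the other 12 Pkd1 libraries.

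Among the Pkd1 KO kidneys miR-148a-5p was the member called between P1 and P7. It was at 224, 247 and 221 CPM at P1 and at 79.4, 124 and 113 CPM at P7, with no overlap, as for 49.4% of miRNAs. It fell by 1.13 on the log2 scale (SE 0.26, adjusted p = 0.00909 by edgeR), and 1 of 4 members was called beside 17.1% of miRNAs. At an unadjusted p under 0.05 there was again 1 of 4, beside 31.6%. Without Pkd1 P7 KO replicate 1, the lowest library, the adjusted p was 0.0561 at a value of -0.96. The 3p strand of the same hairpin was at 8120 ± 394 CPM at P1 and 7724 ± 912 CPM at P7 (SD, n = 3), a log2 fold change of -0.07 (interval -0.36 to 0.21). This rests on the scaling: with totals that left out miR-10 it was -0.53 (adjusted p = 0.0107 by edgeR) and with library totals alone -1.22 (adjusted p = 0.0353), where the medians of all miRNAs were -0.50 and -1.16. miR-148b-3p, at 0.04 with TMM, turned to -1.11 with library totals alone (adjusted p = 0.0454 by edgeR). Of the tubule miRNAs 2 of 4 were called higher, with sums of 7390 to 7906 CPM at P1 and 9936 to 10842 CPM at P7. Log2 fold changes of the 4 ran from -0.84 to 1.10. Of the leukocyte miRNAs 2 of 4 were called higher, with 130 to 169 CPM and 243 to 313 CPM, and of the mesenchymal miRNAs 1 of 3. The miR-10 share of these KO libraries was 57.3% to 61.8% at P1 and 67.9% to 79.0% at P7. The part of these values in the result was not tested.

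No member was called between P1 and P7 in the Pkd2 model by edgeR with TMM or by DESeq2, where by edgeR 28.3% of miRNAs were called in WT and 24.4% in KO (237 and 212 of 746 by DESeq2). In WT, 0 of 4 had an unadjusted p under 0.05 by edgeR, and in KO 1 of 4, against 39.8% and 37.8% of all. That member was miR-152-3p, at 283, 344 and 314 CPM at P1 and 294, 177 and 216 CPM at P7 in KO, a value of -0.45 on the log2 scale (SE 0.19, adjusted p = 0.101 by edgeR). P7 KO replicate 1 lay within the P1 range, and without it the adjusted p was 0.0195 at -0.68. In WT, miR-148a-3p was at 9389 ± 904, 9570 ± 679 and 8655 ± 564 CPM at P1, P3 and P7 (SD, n = 3), and miR-148b-3p at 995 ± 85.5, 1157 ± 210 and 1011 ± 140 CPM. The P1 to P3 change of miR-148a-3p was 0.03 (interval -0.31 to 0.36), with 0 of 4 members called and 0.268% of miRNAs. From P3 to P7, 0 of 4 members and 4.16% of miRNAs were called. In both steps 0 of 4 had an unadjusted p under 0.05 by edgeR, against 14.2% and 24.4% of all, and DESeq2 called 0 of 4. With totals that left out miR-10, miR-148a-3p, miR-148a-5p and miR-152-3p passed in WT from P1 to P7, at -0.65, -0.76 and -0.75, as did miR-148b-3p at -0.51 against 0.02 with TMM. That scaling called 327 of 746 miRNAs, 293 of them lower, at a median of -0.60. In KO it called miR-148a-3p at -0.43, against 0.12 with TMM, miR-148b-3p at -0.80 and miR-152-3p at -1.01, among 303 of 746 miRNAs at a median of -0.63. Whether the changes differ between the models was not tested.

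Both strands of each hairpin were in the table, so the balance of the arms could be followed within libraries. miR-148a gave 25.6 to 91.8 reads of 3p for each read of 5p, and miR-148b 12.2 to 34.3. For miR-152 the arms were close to even. Its 5p strand, not a member, had more reads than 3p in 18 of 18 Pkd1 libraries and in 6 of 18 Pkd2 libraries, and the number of 5p reads per 3p read ran from 0.391 to 2.86. The other arm of miR-148b changed through P3 in the Pkd1 WT kidneys. miR-148b-5p was at 24.3 ± 3.00 CPM at P1, 43.0 ± 9.95 at P3 and 26.2 ± 5.28 at P7 (SD, n = 3), higher at P3 by 0.82 (SE 0.19, adjusted p = 0.0132 by edgeR) and lower again by P7, at -0.72 (SE 0.19, adjusted p = 0.0263 by edgeR). In Pkd2 KO kidneys miR-152-5p rose from P1 to P7 by 0.79 (SE 0.19, adjusted p = 0.00779 by edgeR) while miR-152-3p was at -0.45.

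Ratios within a library were tested over 16 comparisons by exact permutation of genotype within age or of age within genotype, and none passed after adjustment over the 16. The smallest p was that of the log2 ratio of miR-148a-5p to miR-148a-3p in the Pkd1 model, which was 0.69 lower at P7 than at P1, -6.19 ± 0.29 against -5.50 ± 0.47 (SD, n = 6 each; exact two-sided permutation p = 0.02, adjusted 0.32). The direction was the same in WT and in KO, at -0.30 and -1.08. In KO against WT the ratio differed by 0.31 in the Pkd1 model (exact permutation p = 0.0935, adjusted 0.4), with 0.73, 0.23 and -0.04 at the successive ages. The share of miR-152-3p in the 3p seed reads was 0.578 percentage points higher in Pkd2 KO than WT libraries (exact permutation p = 0.0597, adjusted 0.4). By age the difference was 1.38 points at P1, 0.0355 at P3 and 0.324 at P7. Its P1 values were 3.78% ± 0.905 in KO and 2.41% ± 0.280 in WT (SD, n = 3). Within single ages of the Pkd1 model the share of miR-148a-3p did not overlap between genotypes at P3, 2.29 points higher in KO, and at P7, 1.61 points lower (difference -1.61), each with an exact permutation p of 0.1, the smallest that 3 against 3 allows. In the Pkd2 model all 3 shares were separate at P1, each with an exact permutation p of 0.1. Differences of KO from WT were -4.05 points for miR-148a-3p, 2.67 for miR-148b-3p and 1.38 for miR-152-3p. How often shares among other miRNAs separate was not computed. The smallest p these designs allow is 0.00025 for genotype and 0.005 for age.

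The miR-148a arm ratio moved with the share of miR-10 in a library, a relation looked for after the values had been seen. Across the 18 Pkd1 libraries Pearson's r was -0.865 and Spearman's rho -0.891, and across the 18 Pkd2 libraries they were -0.893 and -0.827. The permutation p of r was 1e-05 in both, the smallest that 100000 permutations can give, and 4e-05 after adjustment over 12 relations. For rho the permutation p was 1e-05 and 5e-05. Libraries were permuted freely across ages and genotypes, so these p-values do not separate a relation within groups from differences between groups. The adjustment does not cover the choice of the relation after the values had been seen. Without the 2 libraries farthest from the median miR-10 share, r was -0.812 and -0.758. The ratio was -4.68 where miR-10 took 31.4% of the reads and -6.52 where it took 79.0%. Other hairpins also had such relations, in both directions. Among 122 hairpins with at least 10 reads of each arm in every library, r of the minor over the major arm ran from -0.993 to 0.936 for Pkd1 and from -0.981 to 0.970 for Pkd2. The medians were -0.0569 and 0.221, and miR-148a had the 8th most negative value in each model. Shares of the 3p seed reads were among the 12 relations too. Over all 36 libraries, both models together, r with the miR-10 share was -0.538 for miR-152-3p (permutation p = 0.00061, adjusted 0.0018). For miR-148a-3p it was 0.432 (permutation p = 0.0083, adjusted 0.02), and for miR-148b-3p -0.311 (permutation p = 0.066, adjusted 0.11). Within single models no share passed, with adjusted permutation p of r at 0.094 or more.

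**Figure D4:**
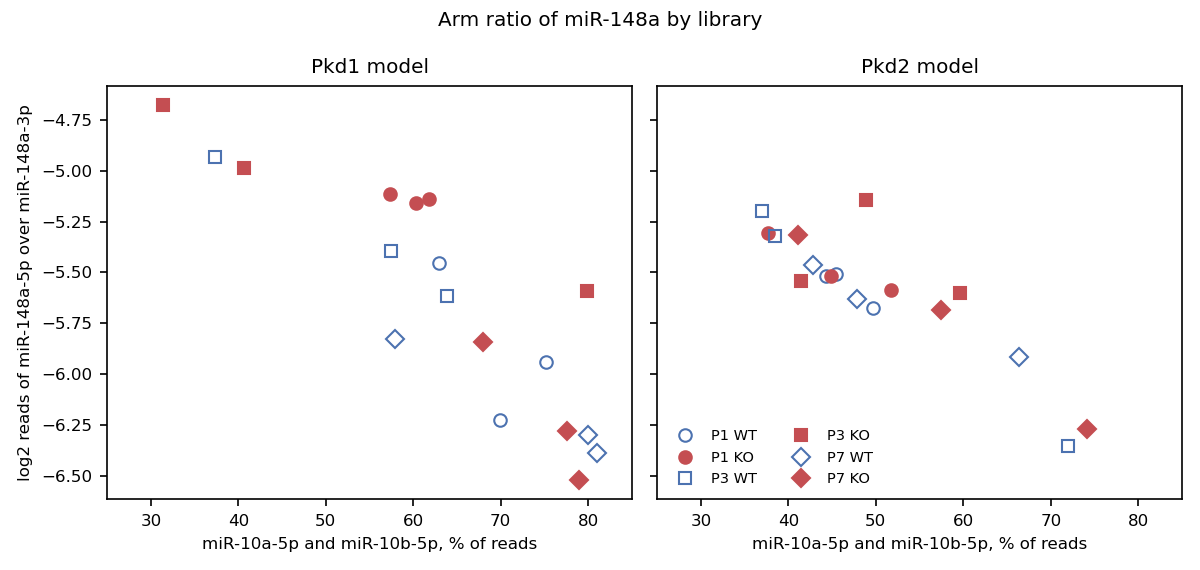
Each point is 1 library, with the percent of reads taken by miR-10a-5p and miR-10b-5p on the horizontal axis and the log2 ratio of miR-148a-5p to miR-148a-3p reads on the vertical axis; shape gives age, open symbols WT and filled symbols KO. Libraries with a larger miR-10 share have a lower ratio in both models, with Pearson's r of -0.865 and -0.893.

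Across all 36 libraries the members did not follow one another closely, as described by Pearson's r of log2 CPM with a single scaling. It was 0.488 between miR-148a-3p and miR-148b-3p, 0.392 between the 2 strands of miR-148a and -0.0671 between miR-148a-3p and miR-152-3p. Of 153 miRNAs with a mean of at least 100 CPM, the 3 closest to miR-148a-3p were let-7f-5p (r = 0.708), miR-378c (0.706) and miR-378a-3p (0.650). Those of miR-148a-5p were miR-25-3p (0.769), miR-708-3p (0.662) and miR-181c-3p (0.637). miR-148b-3p was closest to miR-196b-5p (0.625), and miR-152-3p to miR-652-3p (0.706). These points share the depth and the miR-10 content of their libraries.

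Other miRNAs that have been linked to DNA methyltransferases were read from a list of 7 that includes the miR-29 family, known to bind Dnmt3a and Dnmt3b. Of the 6 comparisons of KO with WT, Pkd2 at P7 was the one in which edgeR called any of them, 2 of 7 higher and 0 lower, beside 12.6% of all miRNAs called. These were miR-29a-3p, at a value of 1.31 on the log2 scale (SE 0.23, adjusted p = 0.00648 by edgeR), and miR-29b-3p, at 1.11 (SE 0.31, adjusted p = 0.0263 by edgeR). Between P1 and P7, 4 of 7 were higher in Pkd1 WT, 4 in Pkd1 KO, 3 in Pkd2 WT and 3 in Pkd2 KO, with 0 lower in each, beside 21.5%, 17.1%, 28.3% and 24.4% of all miRNAs called. Medians of the 7 in WT were 1.03 and 0.70 beside -0.03 and -0.06 over all miRNAs, and those of the 4 family members were 0.30 and -0.16.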

How the data were processed

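Small RNA of whole mouse kidney was sequenced in 36 libraries. The authors trimmed the adaptor, counted reads with miRDeep2 against miRBase release 21 and mm10, and deposited raw counts, 1 row per mature miRNA and hairpin. The submitters' processing notes name CASAVA 1.8.2 and HTSeq. For 83 miRNAs listed under several hairpins only the row of largest summed count entered; no member is among them. The test was that of edgeR 4.0.16 under R 4.3.3 (quasi-likelihood, TMM, at least 10 counts in at least 3 libraries, 1 term per group, 18 libraries per model; all 36 for the difference between models), with p-values adjusted by Benjamini-Hochberg over all miRNAs tested. DESeq2 1.42.0, 3 other scalings, no filter, the compared libraries alone, a replicate block and leaving out each library were alternatives. Shares and arm ratios were tested by exact two-sided permutation. A floor of 3 reads is 0.0562 to 0.391 CPM; floors cover counting error only, because PCR copies could not be told from separate molecules. Replicate libraries differed by at least 38.0 times counting noise (chi-square per degree of freedom). The scripts were tested on simulated data. The named miRNAs are the members, the other arms of their hairpins, the 3 closest miRNAs to each member and the list of 7. The members, lists and tests were chosen with earlier results of these data known.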

Additional observations from a re-analysis of the deposited data

How the results depend on the processing

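No member was called between KO and WT under any scaling, filter, replicate block or choice of libraries in the fit, other than miR-148a-3p at Pkd1 P7 with DESeq2 and without Pkd1 P7 WT replicate 3. The values that changed sign or call are log2 fold changes unless a share is named; the cause was not tested. Without the filter on low counts, Pkd1 P1 KO vs WT gave -0.049 for miR-148a-3p, and Pkd1 WT P7 vs P1 gave 0.36 for miR-148a-3p. Without the filter on low counts, Pkd2 WT P7 vs P1 gave -0.015 for miR-148b-3p, and Pkd2 WT P3 vs P1 gave -0.024 for miR-148a-3p and -0.011 for miR-148a-5p. Without the filter on low counts, KO effect Pkd1 minus Pkd2 at P7 gave 0.021 for miR-148b-3p. With library totals alone, Pkd1 P3 KO vs WT gave 0.062 for miR-148a-3p, and Pkd1 WT P7 vs P1 gave -0.26 (miR-148a-3p), -0.55 (miR-148a-5p), -0.31 (miR-148b-3p), -0.43 (miR-152-3p). With library totals alone, Pkd1 KO P7 vs P1 gave -1.22 for miR-148a-3p and -1.11 for miR-148b-3p, and Pkd1 WT P3 vs P1 gave -0.045 (miR-148a-3p), 0.52 (miR-148a-5p), 0.26 (miR-152-3p). With library totals alone, Pkd1 WT P7 vs P3 gave -0.21 (miR-148a-3p), -1.07 (miR-148a-5p), -1.09 (miR-148b-3p), -0.68 (miR-152-3p), and Pkd2 P3 KO vs WT gave 0.086 for miR-148b-3p. With library totals alone, Pkd2 WT P7 vs P1 gave -0.72 for miR-148b-3p, and Pkd2 KO P7 vs P1 gave -0.77 (miR-148a-3p), -1.22 (miR-148b-3p), -1.27 (miR-152-3p). With library totals alone, Pkd2 WT P3 vs P1 gave -0.30 (miR-148a-3p), -0.15 (miR-148a-5p), -0.16 (miR-148b-3p), and KO effect Pkd1 minus Pkd2 at P7 gave 0.00071 for miR-148b-3p and -0.072 for miR-152-3p. With totals that left out miR-10, Pkd1 WT P7 vs P1 gave -0.0086 (miR-148a-3p), -0.36 (miR-148a-5p), -0.053 (miR-148b-3p), -0.27 (miR-152-3p), and Pkd1 KO P7 vs P1 gave -0.53 for miR-148a-3p and -0.41 for miR-148b-3p. With totals that left out miR-10, Pkd1 WT P7 vs P3 gave -0.24 for miR-148a-5p and -0.25 for miR-148b-3p, and Pkd2 P3 KO vs WT gave 0.057 for miR-148b-3p. With totals that left out miR-10, Pkd2 WT P7 vs P1 gave -0.65 (miR-148a-3p), -0.76 (miR-148a-5p), -0.51 (miR-148b-3p), -0.75 (miR-152-3p), and Pkd2 KO P7 vs P1 gave -0.43 (miR-148a-3p), -0.80 (miR-148b-3p), -1.01 (miR-152-3p). With totals that left out miR-10, Pkd2 WT P3 vs P1 gave -0.22 (miR-148a-3p), -0.20 (miR-148a-5p), -0.030 (miR-148b-3p), and Pkd2 WT P7 vs P3 gave -0.44 for miR-148a-3p. With DESeq2 size factors, Pkd1 KO P7 vs P1 gave -0.0018 for miR-148b-3p, and Pkd2 P1 KO vs WT gave -0.0040 for miR-148b-3p. With DESeq2 size factors, Pkd2 WT P7 vs P3 gave 0.0011 for miR-152-3p. With the DESeq2 Wald test, Pkd1 P7 KO vs WT gave -0.49 for miR-148a-3p, and Pkd1 KO P7 vs P1 gave -0.0019 for miR-148b-3p. With the DESeq2 Wald test, Pkd2 P1 KO vs WT gave -0.0040 for miR-148b-3p, and Pkd2 WT P7 vs P3 gave 0.00071 for miR-152-3p. With the compared libraries alone, Pkd1 WT P7 vs P1 gave 0.42 for miR-148a-3p, and Pkd1 KO P7 vs P1 gave -0.040 for miR-148b-3p. With the compared libraries alone, Pkd1 WT P3 vs P1 gave -0.68 for miR-148a-3p. With the replicate block, Pkd1 WT P7 vs P1 gave 0.44 for miR-148a-3p with its call lost (adjusted p = 0.0504 by edgeR), and KO effect Pkd1 minus Pkd2 at P7 gave 0.00088 for miR-148b-3p. With medians in place of means, Pkd1 KO vs WT gave 0.19 for miR-148a-3p share, and Pkd1 P7 vs P1 gave -0.012 for miR-148b-3p share. With medians in place of means, Pkd2 KO vs WT gave -0.091 for miR-148a 5p to 3p log2 ratio. With each library left out in turn, Pkd1 WT P7 vs P1 ran from 0.39 to 0.49 for miR-148a-3p and from -0.021 to 0.29 for miR-148a-5p and from -0.012 to 0.32 for miR-152-3p, and Pkd1 WT P3 vs P1 ran from -0.28 to 0.10 for miR-148a-5p. Pkd1 KO P7 vs P1 ran from -1.26 to -0.96 for miR-148a-5p and from -0.049 to 0.12 for miR-148b-3p and from -0.20 to 0.039 for miR-152-3p, and Pkd1 P3 KO vs WT ran from -0.15 to 0.035 for miR-148a-3p and from -0.0043 to 0.48 for miR-148a-5p and from -0.42 to 0.015 for miR-152-3p. Pkd1 P7 KO vs WT ran from -0.59 to -0.39 for miR-148a-3p, and Pkd2 P1 KO vs WT ran from -0.043 to 0.080 for miR-148b-3p. Pkd2 WT P7 vs P1 ran from -0.063 to 0.15 for miR-148b-3p, and Pkd2 KO effect P7 minus P1 ran from -0.24 to 0.27 for miR-148a-5p. Pkd2 WT P3 vs P1 ran from -0.049 to 0.081 for miR-148a-3p and from -0.12 to 0.27 for miR-148a-5p, and Pkd2 KO P7 vs P1 ran from -0.46 to 0.075 for miR-148a-5p and from -0.68 to -0.33 for miR-152-3p. Pkd2 P3 KO vs WT ran from -0.030 to 0.37 for miR-148a-5p and from -0.14 to 0.10 for miR-148b-3p and from -0.048 to 0.20 for miR-152-3p, and Pkd2 WT P7 vs P3 ran from -0.27 to 0.010 for miR-148b-3p and from -0.17 to 0.040 for miR-152-3p. Pkd2 P7 KO vs WT ran from -0.53 to 0.0034 for miR-148a-5p and from -0.17 to 0.17 for miR-152-3p, and KO effect Pkd1 minus Pkd2 at P7 ran from -0.50 to 0.058 for miR-148a-5p and from -0.13 to 0.19 for miR-148b-3p. Pkd1 KO vs WT ran from -0.18 to 0.17 for miR-148a-3p share, and Pkd1 P7 vs P1 ran from -0.39 to 0.13 for miR-148a-3p share. Pkd2 KO vs WT ran from -0.053 to 0.15 for miR-148a 5p to 3p log2 ratio. Same-numbered WT and KO libraries did not consistently deviate together. The correlation of their deviations ran from -0.480 to 0.507, with 7 of 18 pairs over 0.1 and 5 libraries closest to their own number. With 3 libraries per group this does not exclude a pairing, and the main test used none. The labels give no batch, and age cannot be told apart from one.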
